A study of Mus musculus with 6 samples.

Results

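Catalase (Cat), the superoxide dismutases Sod1 to Sod3 and the peroxiredoxins Prdx1 to Prdx6 are enzymes that directly remove superoxide or hydrogen peroxide. These 10 genes were taken by name from the platform annotation, and 8 of them had a row under their symbol among the 23185 named genes of the array. Prdx5 and Prdx6 had none and were not analysed here. The arrays, 3 per group, measured heart RNA of wild type and irisin knockout mice of the FVB strain. Both groups ate standard chow with 10% fat for 24 weeks, and the controls were littermates. Irisin is a peptide hormone cleaved from the product of Fndc5, and the knockout line was made by injecting zygotes with Cas9 mRNA and 5 guide RNAs. Sex and age are not given in the labels. Some label fields call the material cardiomyocytes and another calls it myocardium. Whether each array is a separate animal is not stated plainly in the labels, so p-values may measure technical spread only. The series title places the comparison in the setting of insulin resistance and ischaemic injury of the heart.

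Superoxide leaks from the respiratory chain and from oxidases, and superoxide dismutases turn it into hydrogen peroxide. Each dismutase works in its own place: Sod1 in the cytosol, Sod2 in the mitochondrial matrix and Sod3 outside the cell. Catalase breaks hydrogen peroxide down in peroxisomes, and peroxiredoxins reduce it with electrons that mostly come from thioredoxin and, in the end, from NADPH. Heart muscle is packed with mitochondria, which makes it a tissue where this chemistry has been studied closely.

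The arrays carried a strong muscle signal together with markers of other cell types. The 12 cardiomyocyte markers averaged 10.81 to 10.88 log2 units on the wild type arrays and 10.81 to 10.86 on the knockout arrays. Of the 12, 1 was called higher. Nppa, also 1 of the 6 atrial markers below, read 11.8, 6.8 and 9.4 on wild type arrays 1, 2 and 3. On knockout arrays 1, 2 and 3 it read 9.3, 8.5 and 8.0. Its spread enters the average, so near-equal averages do not show equal muscle signal on the 6 arrays. Fibroblast markers averaged 6.96 to 7.82 in wild type and 6.19 to 6.37 in the knockout, where 6 of 9 fell. Among 11 smooth muscle and pericyte markers 5 fell and 3 rose, with averages of 7.18 to 8.18 and 6.66 to 6.82. The 6 atrial markers averaged 9.12, 4.45 and 5.44 on wild type arrays 1, 2 and 3, and 5.55, 3.29 and 3.10 on knockout arrays 1, 2 and 3. In each group the array numbered 1 was highest. The median difference of these markers was -2.32, with 0 of 6 differences positive, and 0 of 6 passed. Among the rest, 3 of 9 endothelial markers fell, as did 1 of 8 macrophage markers, and 0 of 8 neutrophil and 0 of 5 adipocyte markers passed. At an unadjusted p under 0.05, limma counted 2 atrial, 1 adipocyte and 0 neutrophil markers as lower. Fndc5 stood at 7.83 to 8.42 in wild type and at 7.68, 5.49 and 5.45 in knockout replicates 1, 2 and 3 (limma, adjusted p = 0.0359). Knockout replicate 1 was thus only 0.14 below the lowest wild type array for the targeted gene. The Fndc5 difference of -2.01 ran from -2.75 to -1.63 over 16 other settings, and in 6 of them its call was lost (adjusted p up to 0.133): leaving out any array other than knockout replicate 1, and the robust variance model. Fewer cells of a type and less RNA per cell cannot be told apart in such bulk samples.

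Promoters are shown for Cat and Prdx3, the pair with the largest rises described next, and for Prdx1. They are the 250 bases before the start site from RefSeq's GRCm38.p6 table, which held 8 of the 10 genes. Capitals mark a nuclear receptor motif (AGGTCA) in Cat and Prdx3 and the core of the antioxidant response element (TGACNNNGC, here on the opposite strand) in Prdx1.
Cat promoter, chr2:103485154-103485403, minus strand: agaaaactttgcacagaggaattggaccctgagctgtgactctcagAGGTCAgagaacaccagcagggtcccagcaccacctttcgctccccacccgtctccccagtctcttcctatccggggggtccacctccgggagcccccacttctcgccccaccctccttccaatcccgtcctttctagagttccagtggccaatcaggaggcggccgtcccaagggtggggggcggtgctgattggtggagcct
Prdx3 promoter, chr19:60874539-60874788, minus strand: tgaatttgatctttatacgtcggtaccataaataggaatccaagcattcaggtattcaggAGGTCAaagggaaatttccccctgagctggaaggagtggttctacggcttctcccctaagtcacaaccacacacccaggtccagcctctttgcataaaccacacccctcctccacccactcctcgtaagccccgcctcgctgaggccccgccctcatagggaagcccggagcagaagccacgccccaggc
Prdx1 promoter, chr4:116685349-116685598, plus strand: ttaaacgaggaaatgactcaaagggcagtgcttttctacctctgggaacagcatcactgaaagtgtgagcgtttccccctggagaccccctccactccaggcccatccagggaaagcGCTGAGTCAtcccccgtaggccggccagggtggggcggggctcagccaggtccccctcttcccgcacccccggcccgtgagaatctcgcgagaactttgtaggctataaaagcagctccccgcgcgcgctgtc
The receptor motif began 204 bases before the Cat start and 190 bases before the Prdx3 start. It occurs on either strand in 16.3% of all 32851 promoter windows of 300 bases. The response element core began 133 bases before the Prdx1 start and 56 bases before the Sod1 start, and 12.4% of all windows hold it. Of the other motifs searched on both strands, an E-box (CACGTG, 7.15% of windows) lay in the Prdx4 promoter. The FOXO motif (GTAAACA, 3.65%) and the oestrogen-related receptor motif (AAGGTCA, 4.72%, which contains AGGTCA) were found in none of the 8. The Prdx2, Sod2 and Prdx5 windows held none of the 5 motifs. The promoters shown were thus picked from those with a match. Prdx2, which rose more than Prdx1, is not shown, nor is Sod1, which has the same core as Prdx1 but did not pass. A match describes letters only and is no evidence that a factor binds there.

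Across the family, catalase and 3 peroxiredoxins were higher in the knockout heart, and no measured member was called lower. Of the 8 members, 4 rose (Cat, Prdx3, Prdx2 and Prdx1) and 0 fell at an adjusted p under 0.05, where 10.4% of all genes rose and 6.18% fell (limma with Benjamini-Hochberg adjustment over 23185 genes). Over all genes 2416 rose and 1432 fell, against 3090 and 1008 after centring each array on its median. Of the 4 members that did not pass, 1 (Sod2) had an unadjusted p under 0.05, and 0 members were lower at that level. The 3 knockout values lay above all 3 wild type values for 5 members, which also holds for 17.2% of all genes. The median difference over the 8 members was 0.49 log2 units, against -0.05 over all genes. Bright genes tended to be higher in the knockout: in the brightest 10% of genes 34.5% rose, with a median of 0.27. Of the 8 members 6 lay among these bright genes, and 4 of those 6 rose.

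**Figure D1:**
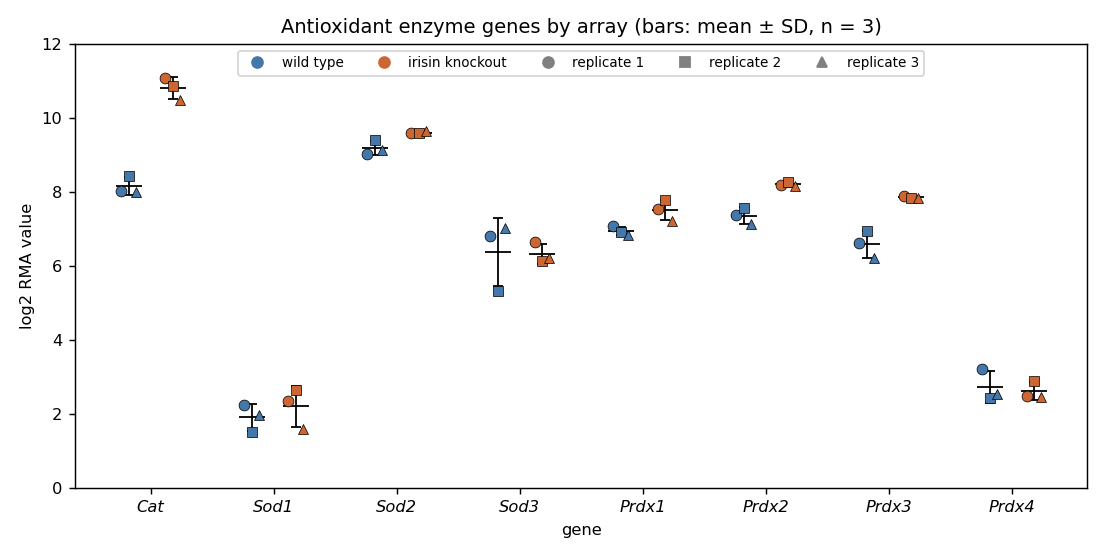
Log2 expression value (y axis) of the 8 measured genes (x axis) on each array, with wild type in blue and irisin knockout in orange; symbols mark the replicate number and bars the mean ± SD (n = 3). The knockout points of Cat, Prdx2 and Prdx3 stand clear of the wild type points, those of Sod2 and Prdx1 lie just above them, and those of Sod1, Sod3 and Prdx4 overlap.

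Catalase changed most. Cat (Entrez gene 12359) stood at 8.04, 8.43 and 7.99 log2 units on the wild type arrays and at 11.08, 10.85 and 10.48 on the knockout arrays, in the order of replicates 1, 2 and 3 as for all genes below. The lowest knockout array stood 2.06 log2 units above the highest wild type array. The means were 8.15 ± 0.24 and 10.80 ± 0.30 (SD, n = 3), a 6.29-fold difference (2.65 log2 units, SE 0.19, 95% interval 2.23 to 3.08, limma adjusted p = 0.000211). By size of difference in either direction Cat ranked 33 among the 23185 genes. Single cardiomyocyte markers went both ways: Pln, which restrains the calcium pump, rose by 0.76 log2 units, and Actc1 and Mb differed by 0.34 and 0.29 and the titin gene Ttn by -0.56 without passing. Their part in the rise of Cat was not tested. Red cells are rich in catalase and in Prdx2. The 4 red cell markers measured averaged 2.23 to 3.79 on the wild type arrays and 2.00 to 2.49 on the knockout arrays, and 0 of 4 passed in limma (1, Hbb-bs, was lower at an unadjusted p under 0.05). The highest of them, the haem synthesis enzyme Alas2, read 7.41 in wild type replicate 2 and 4.41 to 5.14 elsewhere.

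Prdx3, the peroxiredoxin of the mitochondrial matrix, had the second largest rise of the family. It read 6.62, 6.93 and 6.21 in wild type and 7.88, 7.84 and 7.84 in the knockout. The knockout arrays were close together and all above the wild type arrays, whose spread was wider. The difference was 1.27 log2 units (SE 0.18, 95% interval 0.86 to 1.68, limma adjusted p = 0.0027), or 2.41-fold.

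Sod2, which makes hydrogen peroxide from superoxide in the same compartment, stood at 9.03, 9.39 and 9.14 in wild type and at 9.58, 9.58 and 9.64 in the knockout. All knockout values were above the wild type values, by at least 0.19, and the difference of 0.41 (95% interval 0.12 to 0.71) missed the threshold (limma adjusted p = 0.0630). It passed without wild type replicate 2 (0.51, adjusted p = 0.0307) and after centring each array on its median (0.51, adjusted p = 0.0277). After quantile normalization it shrank to 0.15 (adjusted p = 0.490). The log2 ratio of Prdx3 to Sod2 within an array was -2.94 to -2.41 in wild type and -1.79 to -1.70 in the knockout, so the pair changed unequally.

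The cytosolic peroxiredoxins rose less. Prdx2 read 7.39, 7.57 and 7.13 in wild type and 8.18, 8.28 and 8.16 in the knockout, a gap of at least 0.60 between the groups. Its difference was 0.85 log2 units (SE 0.14, 95% interval 0.53 to 1.16, limma adjusted p = 0.00492), or 1.80-fold.

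Prdx1, its close relative in the cytosol, read 7.07, 6.93 and 6.85 in wild type and 7.54, 7.77 and 7.22 in the knockout. Knockout replicate 3 lay only 0.15 above wild type replicate 1. The difference was 0.56 (SE 0.16, 95% interval 0.20 to 0.92, limma adjusted p = 0.0439), or 1.48-fold. The call was lost without knockout replicate 1 (adjusted p = 0.128) or 2 (0.151), without wild type replicate 2 (0.0878) or 3 (0.118), with array weights (0.0632), without both arrays numbered 1 (0.124) and after quantile normalization (0.33, adjusted p = 0.182).

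Prdx4 works in the endoplasmic reticulum, where it couples peroxide removal to protein folding. It was dim, at 3.22, 2.43 and 2.53 in wild type and 2.49, 2.90 and 2.45 in the knockout, and the groups overlapped. The difference of -0.12 (95% interval -0.63 to 0.39, limma adjusted p = 0.786) turned to 0.13 without wild type replicate 1, the array with the highest atrial markers. The part of atrial tissue in the Prdx4 values was not tested.

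Sod1, the copper and zinc dismutase of the cytosol, read 2.24, 1.51 and 1.98 in wild type and 2.34, 2.66 and 1.60 in the knockout. These values lay around the median of all genes, 2.30, where no detection call separates signal from background. The arrays of each group spread widely, and the difference of 0.29 had a 95% interval of -0.35 to 0.93 (limma adjusted p = 0.562). At this precision a difference of that size was not detectable for this probe set.

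**Figure D2:**
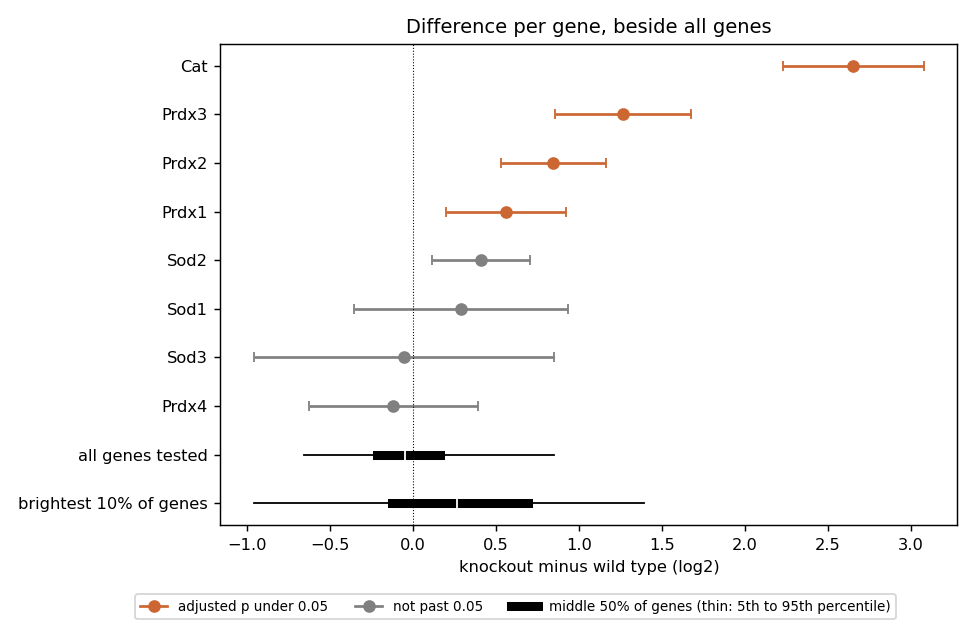
Knockout minus wild type difference (x axis, log2) of each gene with its 95% interval from limma; orange marks an adjusted p under 0.05. The black bars show all genes and the brightest 10% (thick, middle 50%; thin, 5th to 95th percentile): Cat at 2.65 lies beyond the 95th percentile of the brightest 10%, 1.39, while Prdx3 at 1.27 lies below it and above the 95th percentile of all genes, 0.85.

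The differences within the family can also be read as the log2 ratio of 2 members on the same array. Cat over Prdx3 went from 1.56 ± 0.20 to 2.95 ± 0.29 (SD, n = 3), and the ratio of Cat to each other member also lay higher on every knockout array. Prdx3 over Prdx2 went from -0.77 ± 0.15 to -0.35 ± 0.08, with no overlap. The ratios of Prdx2 to Prdx1 and of Prdx1 to Sod2 overlapped between the groups. These ratios are given as a description, with no test.

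Sod3, the dismutase secreted into the extracellular matrix, was the member whose wild type arrays disagreed most. Its values were 6.80, 5.33 and 7.02 for wild type and 6.64, 6.13 and 6.22 for the knockout. Wild type replicate 2 stood apart, and the knockout values lay between it and the other 2 wild type arrays. The difference was -0.05 with a 95% interval of -0.96 to 0.85 (limma adjusted p = 0.952). It was -0.58 without wild type replicate 2 (adjusted p = 0.0719), 0.26 without wild type replicate 3 and 0.16 without wild type replicate 1, so its direction is not settled. Fibroblast markers also averaged lowest in wild type replicate 2, at 6.96 against 7.82 and 7.78, as did smooth muscle and pericyte markers, at 7.18 against 7.54 and 8.18. In the knockout both averages were lower still, while Sod3 was not below wild type replicate 2. Their part in the Sod3 values was not tested.

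The gene with the nearest profile to Sod3, named after its values were seen, was Bgn, which encodes the matrix proteoglycan biglycan. Bgn read 10.61, 9.31 and 10.79 in wild type and 10.37, 10.06 and 10.08 in the knockout. With each gene centred on its own mean over the 6 arrays, the root mean square difference from Sod3 was 0.0869 log2 units.

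**Figure D3:**
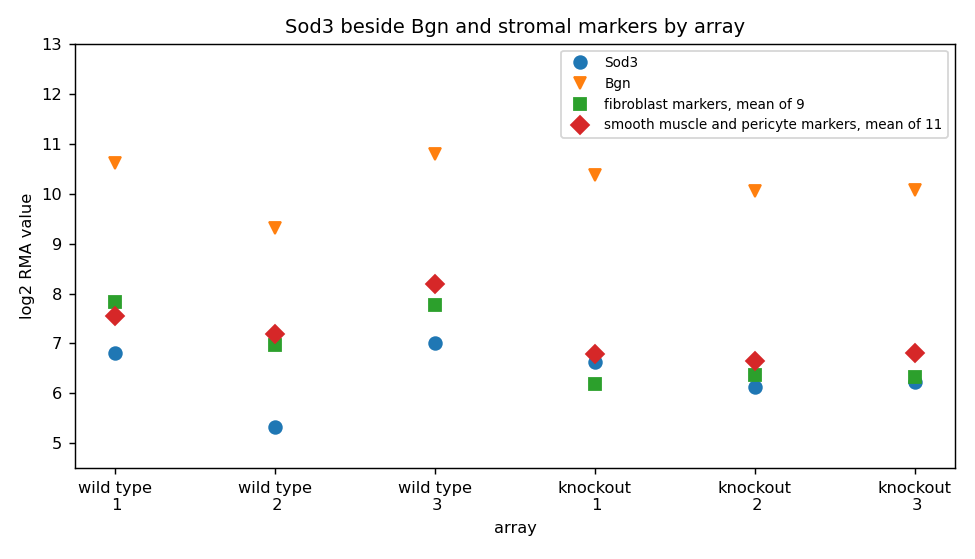
Log2 value (y axis) of Sod3, of Bgn and of the average fibroblast and smooth muscle and pericyte markers on each array (x axis). All 4 are lowest among wild type arrays in replicate 2, and the marker averages are lower on the knockout arrays, whereas Sod3 (6.13 to 6.64) and Bgn (10.06 to 10.37) stay within the wild type range.

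By the same measure over 6 arrays, and among 10926 genes above the median level, the profiles nearest to Cat were those of Nmnat1, which makes NAD in the nucleus, Nudt12, a hydrolase of NAD-type nucleotides, and Retreg1, a receptor for autophagy of the endoplasmic reticulum. They lay 0.133, 0.142 and 0.152 log2 units from it, with differences of 2.44, 2.59 and 2.36. Nearest to Prdx3 were Gpcpd1 (0.0785), Sdr39u1 (0.0834) and Fam174b (0.0862). Prdx2 had the muscle enolase Eno3 (0.0345), the mitochondrial ribosomal protein gene Mrpl37 (0.0438) and Chchd3, of the inner membrane cristae junction (0.0507). Prdx1 had Rnf144b (0.0376), Slc35b4 (0.0491) and Ubxn6 (0.0520). A gene with a like difference is near by construction, so these neighbours describe these 6 arrays only.

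Genes around the enzymes were taken from 9 lists of electron donors, cofactor supply, peroxide sources, peroxisome assembly and regulators. Together they held 113 measured genes other than the members, of which 30 rose, 4 fell and 79 did not pass, with a median difference of 0.15. Leaving out any 1 knockout array left 20 to 22 genes higher and 1 lower, while without both arrays numbered 1 (a choice made once the data had been seen) they were 21 and 1. The counts below are at an adjusted p under 0.05 in limma, where 10.4% of all genes rose and 6.18% fell. Level matters here: 91 of the 113 genes, and 29 of the 30 that rose, lay in the brightest 40% of all genes, where 23.6% rose and 10.9% fell.

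Of 14 genes listed around electron donation to peroxiredoxins and their repair 3 rose and 0 fell, with a median of 0.32. At an unadjusted p under 0.05, 6 were higher and 0 lower. Txnip, which binds and inhibits thioredoxin, rose 1.88-fold (adjusted p = 0.0128). The sestrins Sesn1 and Sesn3, stress-induced proteins once linked to peroxiredoxin repair, rose 1.48-fold and 1.53-fold. Without knockout replicate 2 or 3, or both arrays numbered 1, 1 of the 14 rose. The direct donors did not pass: mitochondrial thioredoxin (Txn2) differed by 0.32, cytosolic thioredoxin (Txn1) by 0.33, and the reductases Txnrd1 and Txnrd2 by 0.20 and 0.10. Sulfiredoxin (Srxn1), which repairs overoxidised peroxiredoxins, differed by -0.22 and did not pass. Srxn1, Txn1, Txn2, Txnrd1 and Txnrd2 are named for their role, after their values were seen.

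The glutathione system is a parallel route for peroxide removal. Of 15 genes for its peroxidases and for glutathione supply 5 rose and 1 fell, with a median of 0.33. No listed glutathione peroxidase passed: Gpx1, Gpx4 and Gpx7 differed by -0.20, -0.29 and -0.26, and Gpx3 and Gpx8 by 1.15 and 0.13. The peroxidases are named for their role, after their values were seen. Gclm, a subunit of the enzyme that starts glutathione synthesis, rose 2.67-fold from 4.14 ± 0.61 to 5.55 ± 0.12 (SD, n = 3). The glutaredoxin Glrx rose 2.28-fold, the glutathione reductase Gsr 1.73-fold and Slc25a39, a mitochondrial carrier for glutathione, 1.89-fold (limma adjusted p at most 0.0259 for these 4). Glrx2, a mitochondrial glutaredoxin, was the fifth, and Glrx3 was the gene that fell, by 0.81 log2 units (adjusted p = 0.0406). Without any 1 knockout array 3 genes rose and 0 fell, and 0 fell without wild type replicate 3. After quantile normalization the numbers were 3 and 0.

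The genes that supply NADPH, the source of reducing power for both routes, rose for 7 of 12 and fell for 0 (2 were lower at an unadjusted p under 0.05), with a median of 0.50. Nnt, the proton-driven transhydrogenase of the inner mitochondrial membrane, rose 2.42-fold (limma adjusted p = 0.00177). Me3 and Me1, the mitochondrial and cytosolic malic enzymes, rose 2.62-fold and 2.39-fold, and Nadk2, the mitochondrial NAD kinase, 1.94-fold. Without wild type replicate 2, 1 gene of this list fell.

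Peroxisome import and assembly factors, some of which catalase needs to reach its compartment, rose for 7 of 12 and fell for 0 (0 also at an unadjusted p under 0.05), with a median of 0.65. Pex11a, which promotes peroxisome division, rose 3.93-fold from 3.81 ± 0.33 to 5.78 ± 0.11 (SD, n = 3). The membrane assembly factor Pex3 rose 2.83-fold, the import receptor Pex7 2.10-fold and the docking factor Pex13 1.90-fold (limma adjusted p at most 0.00931 for these 4). Pex5, the import receptor that carries catalase and named here for that role after its values were seen, differed by -0.17 and did not pass (adjusted p = 0.650). Without knockout replicate 1, or without both arrays numbered 1, 4 of the 12 rose.

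Among 9 peroxisomal enzymes listed as makers of hydrogen peroxide 2 rose and 0 fell (0 also at an unadjusted p under 0.05), with a median of 0.16. Ddo, the D-aspartate oxidase, which does make peroxide, rose 2.69-fold. Phyh, which hydroxylates phytanoyl-CoA and is not itself an oxidase, rose 1.76-fold.

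Other sources of superoxide and hydrogen peroxide went both ways: 3 of 16 rose and 1 fell, with a median of -0.14. At an unadjusted p under 0.05 in limma, 3 were higher and 3 lower. Maob, the monoamine oxidase of the mitochondrial outer membrane, rose 2.00-fold (limma adjusted p = 0.00274). The aldehyde oxidase Aox1 rose 1.56-fold and Cybb, the catalytic subunit of the phagocyte NADPH oxidase, 1.44-fold. Nos3, the nitric oxide synthase of endothelium, fell by 0.89 log2 units (adjusted p = 0.00556). Endothelial markers averaged 6.83 to 6.87 on the wild type arrays and 6.13 to 6.40 on the knockout arrays, where 3 of 9 fell, and their part in the Nos3 result was not tested. Without knockout replicate 3, 1 of these genes rose, and without wild type replicate 2, 2 fell.

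Copper and manganese supply for the dismutases showed 0 called genes of 8, with a median of -0.05, and 1 of the 8 had an unadjusted p under 0.05. The lowest p values belonged to Ccs, the copper chaperone of Sod1, at 4.66 ± 0.09 in wild type and 4.39 ± 0.10 in the knockout (SD, n = 3, limma adjusted p = 0.167), and to Atox1, another copper chaperone, with a difference of -0.46 (adjusted p = 0.224). The Ccs values did not overlap between the groups, as was true of 17.0% of all genes in that direction.

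NRF2, encoded by Nfe2l2, is the factor that switches on many antioxidant genes. Of 17 genes for its control and targets 2 rose and 1 fell, with a median of 0.05. These counts are near the shares over all genes. Most of the 17 lay in the brightest 40% of genes, however, where the shares were larger: 23.6% rose and 10.9% fell. The quinone reductase Nqo1 rose 2.80-fold and Gclm, counted above as well, 2.67-fold, whereas Maff, a small partner protein of NRF2, fell by 0.73 log2 units (limma adjusted p = 0.0167). The Maff call was lost without any 1 knockout array or both arrays numbered 1. Nfe2l2 itself differed by 0.15 (adjusted p = 0.545), and the targets Hmox1, Srxn1 and Txnrd1 by -0.08, -0.22 and 0.20, which did not pass; these 4 are named for their role.

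Of 15 other regulators 2 rose and 1 fell, with a median of 0.09. The oestrogen-related receptor Esrrg rose 2.17-fold and the fatty acid receptor Ppard 1.41-fold, while Nrf1, a factor for respiratory genes distinct from NRF2, fell by 0.40 (limma adjusted p = 0.0487). Without knockout replicate 1 or 2 or wild type replicate 3, 1 of the 15 rose. Nrf1 did not pass in any of the 6 fits with an array left out (adjusted p from 0.0530 to 0.155), and 2 other regulators fell without wild type replicate 1. Its call was also lost without both arrays numbered 1 (0.125), after centring (0.130), with an intensity trend (0.0776), with the replicate number as a block (0.0932) and, only just, without the dimmest 30% of genes.

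**Figure D4:**
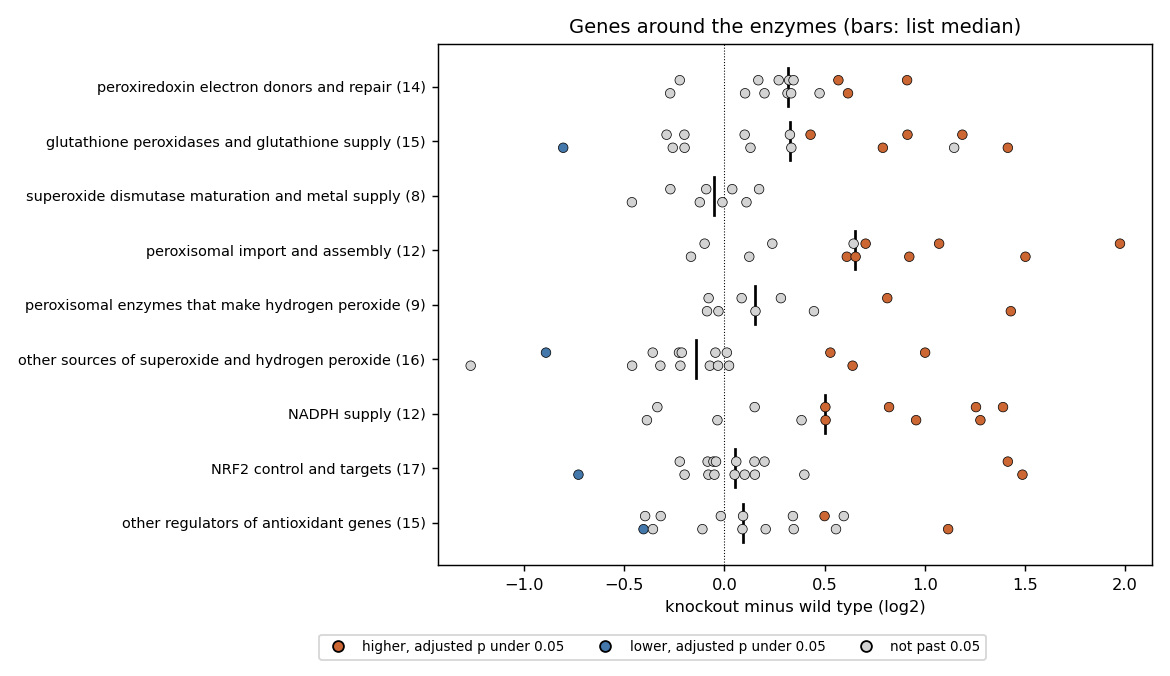
Knockout minus wild type difference (x axis, log2) of each measured gene in the 9 lists (rows, number of genes in brackets); orange and blue mark genes higher and lower at an adjusted p under 0.05, and black bars the list medians. The medians of peroxisomal import (0.65) and NADPH supply (0.50) lie farthest to the right, and that of other sources of superoxide and hydrogen peroxide (-0.14) farthest to the left.

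The rises of Cat, Prdx3 and Prdx2 held in each of the 16 other settings tried. Over these Cat ranged from 2.46 to 2.82 log2 units, Prdx3 from 1.03 to 1.44 and Prdx2 from 0.59 to 0.95, with limma adjusted p values of at most 0.00366, 0.0233 and 0.0336. Prdx1 kept its direction in all 16 but its call in 9. The lowest values of Prdx3 and Prdx2 came from quantile normalization, and that of Cat from leaving out both arrays numbered 1.

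**Figure D5:**
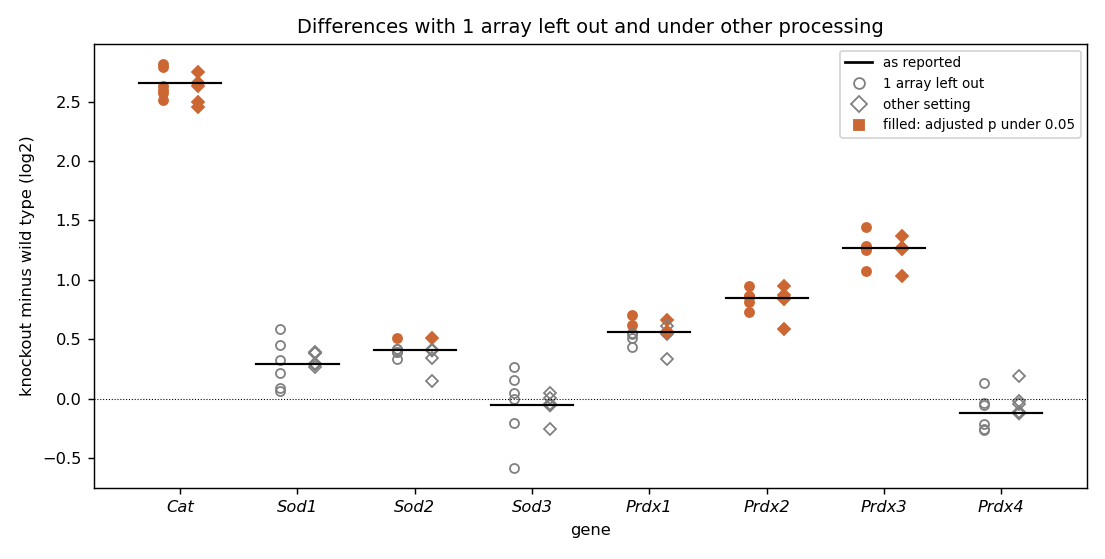
Knockout minus wild type difference (y axis, log2) of each gene (x axis) as reported (black line), with 1 array left out (circles) and under the other settings (diamonds); filled orange symbols have an adjusted p under 0.05. Cat, Prdx2 and Prdx3 stay filled throughout, Prdx1 and Sod2 are mixed, and Sod3 and Prdx4 cross 0.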

How the data were processed

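Per the labels' protocols, TRIzol-extracted total RNA was labelled with biotin by the WT Plus kit for Affymetrix arrays. The authors deposited log2 values, 1 per probe set and array; the submitters' processing notes name RMA, affy 1.61.0 and R 3.6.0. The log2 scale was inferred from values of 0.0929 to 12.96. The sources used here give neither the probe set definition nor the genome build. Low values are not told apart from background. Arrays have no read depth; 3 per group limit the precision.

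The platform annotation named 23185 of 25206 rows, 1 per gene; unnamed rows were left out. Groups came from sample titles. limma 3.58.1 (R 4.3.3, lmFit, eBayes, two-sided, Benjamini-Hochberg, threshold 0.05, no filter, no covariate) was fitted to all named rows. On simulated data it recovered 2 of 67 differences of 0.5 log2 units, 40 of 67 of 1 and 64 of 66 of 2, with 3 false calls. Far fewer genes were changed there than were called here, so recovery in the real arrays may differ. Plots used matplotlib 3.10.9 in Python 3.11.15. Members, lists and naming rules were chosen with earlier results of these data known: all members, Fndc5, the 4 called genes with the lowest p per list (or the 2 lowest where none passed), and the 3 nearest profiles of each called member. Listed genes without a row under their symbol were left out. Alternatives were scaling, dim-gene filters, all rows, variance models, array weights, a replicate block, thresholds and arrays left out; leaving out both arrays numbered 1 was added after the data were seen.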

Additional observations from a re-analysis of the deposited data

How the results depend on the processing

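Over all 23185 genes, leaving out 1 array left 1403 to 2570 genes higher and 701 to 1593 lower, against 2416 and 1432 as reported. Leaving out both arrays numbered 1 left 938 lower. At an adjusted p of 0.01, 1256 rose and 528 fell, and at 0.1, 2212 fell. Centring moved the median of all genes by 0.10, so differences near 0 are relative to the scaling.

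Of the 113 genes of the 9 lists, 18 rose at an adjusted p of 0.01. Those that fell numbered 2 after centring, 2 with a replicate block, 1 without both arrays numbered 1, 1 and 7 at thresholds of 0.01 and 0.1, and 1 to 5 without 1 array.

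Of the 8 members, 3 to 5 rose and 0 fell in every setting, and 4 to 6 did not overlap. Sod3 turned to 0.047 after centring and 0.003 without both arrays numbered 1, and ran from -0.58 to 0.26 with 1 array left out. Among those it was positive when knockout replicate 2 or wild type replicate 1 or 3 was left out, and 0.000 when knockout replicate 3 was. Prdx4 turned to 0.19 without both arrays numbered 1 and ran from -0.27 to 0.13 with 1 array left out, positive only without wild type replicate 1. Sod1 could not be tested without the dimmest 50% of genes, which include it. The replicate number does not pair the arrays by the labels, and deviations of same-numbered arrays correlated at 0.0896, 0.0478 and 0.07; not every array correlated best with its own number. With the replicate block Cat had an adjusted p of 0.000566 and Prdx1 of 0.0439, and 4 members rose. Sod1 and Prdx4 are limited by signal near that of the median gene.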
